A study of Homo sapiens with 6 samples.

Results

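The replication-dependent histone genes of the HIST1 cluster lie on the short arm of human chromosome 6, and the data describe the peaks of 2 histone marks over them. Members were all peaks of the 4 deposited lists that overlap either of 2 blocks of the cluster on hg19, block 1 from 26.015 to 26.29 Mb and block 2 from 27.09 to 27.87 Mb. They numbered 179 of the 149848 peaks in all lists, of which the H3K27ac lists gave 62 for H69 and 64 for H69M and the H3K27me3 lists 21 and 32. The stretch between the blocks, from 26.3 to 27.08 Mb, held 95 peaks and served for comparison.

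H69 is NCI-H69, an established small cell lung cancer line, and H69M is a line derived from it, per the labels, which state no genotype, treatment or time for either and refer to an earlier study for the derivation. Chromatin from each line was precipitated with an antibody against H3K27ac or against H3K27me3, and each of these 4 groups holds 1 sample. An input sample of each line was not analysed here. Sequencing depth is unknown, since the lists give no reads, and no difference between the lines has a replicate check. The cell type could not be set against marker genes, because no gene annotation on hg19 was at hand.

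Histones package DNA into nucleosomes, each built from H2A, H2B, H3 and H4, with H1 on the linker DNA. A dividing cell makes most of its histones in S phase from many short, intron-less genes that stand in clusters and give near-identical proteins. Their transcription depends on NPAT, a substrate of cyclin E and CDK2 that gathers with the gene clusters in nuclear histone locus bodies. H3K27ac is found on active promoters and enhancers, and H3K27me3 is written by Polycomb repressive complex 2 at silenced genes.

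In the gene order of RefSeq (assembly GRCh38.p14) the cluster holds 53 protein-coding histone genes between H1-1 and H2BC17, with 6 for H1, 11 for H2A, 14 for H2B, 10 for H3 and 12 for H4. Block 1 runs from H1-1 to H4C8 and holds 32 of them beside 1 other protein-coding gene, HFE, a regulator of iron uptake. Block 2 holds histone genes at its ends only. There are 5 at its first end, from H2BC11 to H2AC12, and 16 at its last end, from H2BC13 to H2BC17. Between these ends lie 5 other protein-coding genes, among them PRSS16, a thymus protease, and the zinc finger genes ZNF391 and ZNF184, with 51 tRNA genes and 0 histone genes. The stretch between the blocks holds 9 protein-coding genes, 6 of them butyrophilins, and 47 tRNA genes, so it is poor in histone genes but not empty. Because the gene order comes from another assembly than the peaks, no single peak was assigned to a gene.

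Promoter sequences of the histone genes were read as well, but they were not set against the peaks. They are shown for the first gene by order of each of the 5 histone families that has an entry in the RefSeq promoter table, as the 150 bases before the start of the gene, 5′ to 3′ on its own strand. The build is GRCh38.p14, all 5 lie on chromosome 6, H3C1 on the plus strand and the others on the minus strand. Capitals mark TATAAA (the TATA box), CCAAT (the CCAAT box) and ATTTGCAT (the octamer, a binding site of OCT1), each searched on both strands.
H1-1: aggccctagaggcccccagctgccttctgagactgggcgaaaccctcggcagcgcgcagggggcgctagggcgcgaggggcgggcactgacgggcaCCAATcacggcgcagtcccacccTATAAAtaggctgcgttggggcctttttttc
H2AC4: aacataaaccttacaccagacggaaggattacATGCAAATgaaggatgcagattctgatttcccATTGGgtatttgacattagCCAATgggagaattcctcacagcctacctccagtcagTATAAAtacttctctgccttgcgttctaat
H2BC3: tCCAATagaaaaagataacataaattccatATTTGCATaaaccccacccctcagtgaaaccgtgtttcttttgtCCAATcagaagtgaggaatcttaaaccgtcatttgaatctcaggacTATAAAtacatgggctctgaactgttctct
H3C1: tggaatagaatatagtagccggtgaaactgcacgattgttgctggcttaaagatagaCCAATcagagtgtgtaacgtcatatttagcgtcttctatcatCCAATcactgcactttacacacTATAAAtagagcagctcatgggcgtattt
H4C2: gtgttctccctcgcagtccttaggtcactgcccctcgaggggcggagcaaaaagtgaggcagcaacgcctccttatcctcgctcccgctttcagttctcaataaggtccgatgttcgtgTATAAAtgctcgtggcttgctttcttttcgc

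All 5 had a TATA box on the gene strand shortly before the start. CCAAT boxes stood upstream of it in the H1-1, H2AC4, H2BC3 and H3C1 promoters, and octamers in H2AC4 and H2BC3. Of the 53 genes, 48 matched an entry, and the 250 bases before the start of each were searched. TATAAA was found in 31 of the 48 (64.6%), against 11.1% of the 27305 promoters of the whole table. CCAAT was found in 41 (85.4%) against 33.0%, and ATTTGCAT in 20 (41.7%) against 1.66%. The families differed: CCAAT was in all 6 H1, 10 H2A, 14 H2B and 8 H3 promoters but in 3 of 10 H4 promoters, and the octamer was in 11 of 14 H2B and 8 of 10 H2A promoters, 1 H3 promoter and no H1 or H4 promoter. Neighbouring genes that read away from each other can share the same bases where their starts lie close together. Promoters of such pairs need not be separate observations. By order and strand there were 14 pairs among genes with an entry, 8 of them an H2A beside an H2B. Pairs with a gene that has no entry could not be counted, and the distance between starts was not checked. Matches of different motifs overlapped in 0 of the 48 promoters.

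H3K27ac covered a larger share of the stretches that hold histone genes than of the rest of the cluster. These are averages over whole stretches and do not speak for each gene. In block 1 its peaks covered 16.0% of the bases in H69 and 23.4% in H69M. The first end of block 2 was covered over 20.2% and 28.3%, and its last end over 22.04% and 28.5%. The middle of block 2, which has no histone gene, was covered over 1.82% and 2.35%, near the level of chromosomes 1 to 22 and X as a whole, 1.63% and 2.60% of the length from the first to the last peak of each chromosome. The stretch between the blocks had 2.71% and 4.38%. The 3 histone gene stretches together thus had 6.59 times the covered share of the stretch between the blocks in H69 and 5.72 times in H69M, while both blocks with the middle of block 2 included had 2.998 and 2.58 times. The limits of the ends and of the middle of block 2 (27.09 to 27.13, 27.13 to 27.77 and 27.77 to 27.87 Mb) come from general knowledge of hg19 and not from a file.

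**Figure D1:**
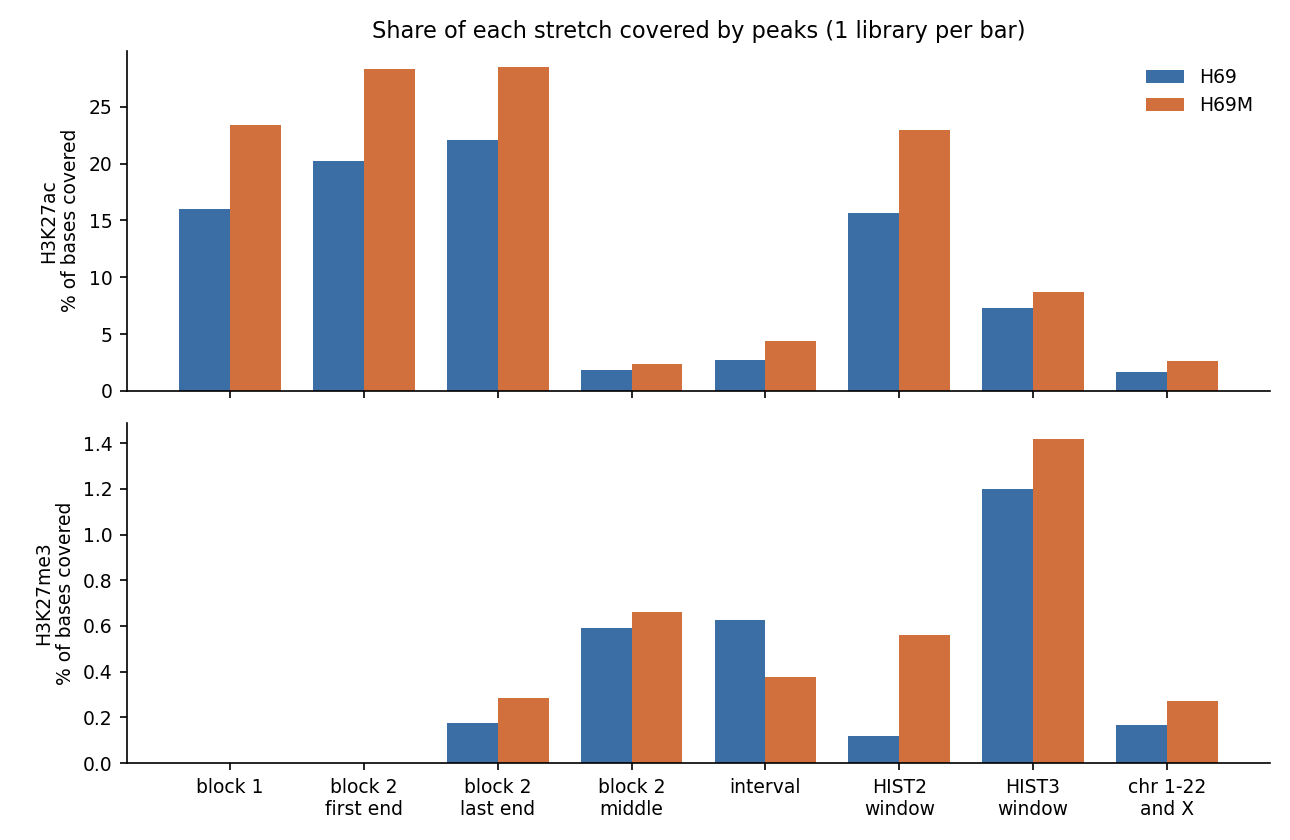
Percent of the bases of each stretch covered by H3K27ac peaks (top) and H3K27me3 peaks (bottom) in H69 and H69M, 1 library per bar, with the HIST2 and HIST3 histone gene windows of chromosome 1 and chromosomes 1 to 22 and X beside the stretches of the cluster. The 3 histone gene stretches stand between 16.0% and 28.5% for H3K27ac, and H3K27me3 is at 0 in block 1 and at the first end of block 2.

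Few regions of the genome were covered as far. Of 11023 windows of 275 kb tiled over chromosomes 1 to 22 and X, 0.599% had as much H3K27ac as the 44.1 kb of block 1 in H69 and 0.308% as much as its 64.3 kb in H69M, with window medians of 1.45 and 2.97 kb. Block 2, with its long middle, reached 41.8 and 54.9 kb, a level that 6.78% and 8.12% of 3878 windows of 780 kb met.

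Peaks in the blocks also had high listed scores. The score is the value the authors' peak caller gave each peak, its definition is not given in the sources used here, and many H3K27ac peaks pile up at 3100, called the ceiling here, with few above it. A score ranks peaks within its own list, and equal scores in separate lists need not stand for equal enrichment. At or above the ceiling were 12 of the 62 block peaks of H69 (19.4%, against 8.93% of all H69 peaks) and 22 of the 64 of H69M (34.4%, against 11.8%). All but 1 of these 34 lay in the histone gene stretches, the exception being the H69M peak over 27439634 to 27442008 in the middle of block 2. The median score was 1611 in H69 and 3100 in H69M in block 1, and 108 and 159 in the middle of block 2. Median widths in block 1 were 1832 bp in H69 and 2423 bp in H69M, against 966 and 1149 bp over all peaks, and in the middle of block 2 they were 696 and 1006 bp.

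**Figure D2:**
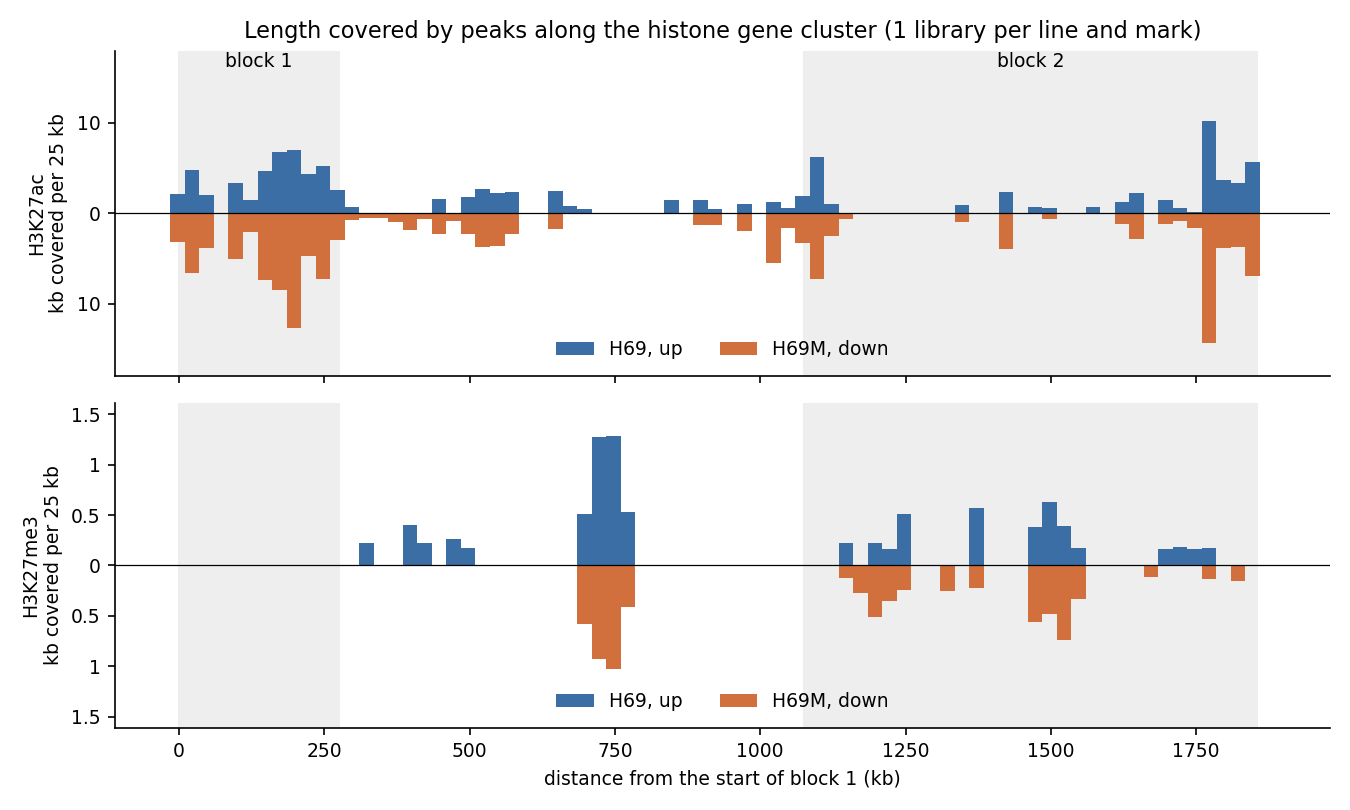
Length covered by H3K27ac peaks (top) and H3K27me3 peaks (bottom) in consecutive bins of 25 kb, H69 upward and H69M downward, against the distance from the start of block 1 in kb, with the blocks shaded. The fullest H3K27ac bins lie in block 1 and at the ends of block 2 in both lines, though the bin at 72.5 kb is empty. H3K27me3 stands mostly between the blocks and in the middle of block 2.

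Within block 1, joining overlapping peaks of the lines gave 28 H3K27ac sites, of which 22 were listed in both lines. The distance between the centres of neighbouring shared sites had a median of 10.00 kb, against 31.6 kb over all shared sites of the genome, and the last end of block 2 was denser still, with 4.45 kb. Block 1 opened with a site at chr6:26020112-26022832, at the ceiling in both lines, covered over 2103 bp in H69 and 2721 bp in H69M. At the next site of both lines, chr6:26026101-26028033, the lengths were near each other (1660 and 1933 bp) but the scores were 418 and 2362. The site at chr6:26031570-26034726 was at the ceiling in both lines with 3071 and 3029 bp, and it was the only site of block 1 that was longer in H69.

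The largest H3K27ac-free stretch of block 1 ran over 46.2 kb from 26057581 to 26103815, and neither line had a peak there. The next in length were 28.6 kb from 26127060 and 18.99 kb from 26034727. Block 1 closed with chr6:26284015-26286951, covered over 2610 bp in H69 (score 2177) and 2937 bp in H69M (score 3100). The next H3K27ac peak stood 32288 bp beyond the edge of the block in H69 and 32120 bp beyond it in H69M.

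At the first end of block 2, the 2 strongest sites differed little in length between the lines. The site at chr6:27098915-27102912 had 2 peaks over 3859 bp in H69 and 1 peak over 3853 bp in H69M, and chr6:27113116-27116121 had 2939 and 2876 bp. The highest score of both sites was at the ceiling in each line. The last end held the widest H69 peak of the blocks, 3519 bp at chr6:27859608-27863126, within a site of 4496 bp in H69M, and the highest listed H69 score, 3226 at chr6:27805340-27807442. The nearest peak outside block 2 began 600 bp beyond in H69 (956 bp, score 211) and 492 bp beyond in H69M (1171 bp, score 321).

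The last end opened with chr6:27774299-27776844, covered over 1680 bp in H69 (score 1301) and 2546 bp in H69M (score 3100). At chr6:27781497-27784280 a pair of H69 peaks over 2415 bp (highest score 698) stood against 1 H69M peak of 2784 bp (score 2840). Farther on, chr6:27831972-27835700 had 3 peaks over 3318 bp in H69 (highest score 1631) and 1 peak over 3729 bp in H69M (score 3100).

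The middle of block 2 held 18 H3K27ac sites, 9 of them in both lines, and their shared sites stood 69.3 kb apart in the median. The strongest was chr6:27439634-27442011, with 2291 bp and a score of 1586 in H69 and 2375 bp and 3100 in H69M. The site with the largest length ratio in the blocks was also here, chr6:27144844-27146623, with 605 bp (score 228) in H69 and 1780 bp (score 842) in H69M, a ratio of 2.94. At chr6:27660926-27662676 the length was greater in H69M, 1751 against 1377 bp, while the score was higher in H69, 1022 against 820. These sites lie between the histone genes and were not assigned to any gene.

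The next comparison asked which of this acetylation differed between H69 and H69M. In the histone gene stretches every one of the 48 H69 peaks overlapped an H69M peak (100%, exact Clopper-Pearson 95% interval 92.6 to 100), against 77.5% of all H69 H3K27ac peaks. In the whole blocks the share was 57 of 62 (91.9%, 82.2 to 97.3), and the other 5 all lay in the middle of block 2. In the opposite direction 47 of the 64 H69M peaks of the blocks overlapped an H69 peak (73.4%, 60.9 to 83.7), against 51.6% of all H69M peaks. The intervals reflect counting error alone, and neighbouring peaks are not independent of each other.

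Because strong peaks were shared more often everywhere, the same shares were taken by score. With a score of 1000 or more, 24 of 24 H69 and 29 of 29 H69M block peaks were shared, where the shares over all such peaks were 99.4% and 93.5%. Under 1000 the shares were 33 of 38 (86.8%) in H69 and 18 of 35 (51.4%) in H69M, where those over all such peaks were 70.3% and 36.6%. In the stretch between the blocks they were 15 of 20 and 10 of 22 (45.5%). Under 1000 in the histone gene stretches alone, 26 of 26 H69 peaks were shared but 10 of 23 H69M peaks (43.5%), and in the middle of block 2 it was 7 of 12 (58.3%) and 8 of 12 (66.7%). The weaker H69M peaks of the gene stretches thus had a share close to that between the blocks.

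The covered length was greater in H69M, but by less than over the genome. The H3K27ac length of the blocks was 85.8 kb for H69 and 119 kb for H69M, a ratio of 1.39, whereas the ratio was 1.59 over chromosomes 1 to 22 and X, 1.61 on chromosome 6 and 1.62 between the blocks (21.2 and 34.2 kb). Block 1 had a ratio of 1.46, the first end of block 2 of 1.40, its middle of 1.30 and its last end of 1.29. Peak numbers differed little, 62 and 64 in the blocks, where the whole lists differed by a ratio of 1.34. Among the 46 sites of both lines in the blocks 9 had several H69 peaks and 1 H69M peak (19.6%, against 11.5% of all such sites) and 0 had the reverse.

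Site by site the H69M peaks were longer. Of the 46 sites 42 were longer there (91.3%, against 77.8% of all sites of both lines), with a median ratio of 1.248 against 1.20 over all. At least 1.5-fold longer in H69M were 11 (23.9%, against 25.7%), and at least 1.5-fold longer in H69 was 1 (2.17%, against 3.72%), the site at chr6:27799977-27800760 with 784 bp in H69 and 428 bp in H69M. The share of sites past 1.5-fold was thus near that of the genome. The 4 sites longer in H69 were this one, the pair at the ceiling at the first end of block 2 and chr6:26031570-26034726 in block 1, and all except this one differed by at most 63 bp.

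**Figure D3:**
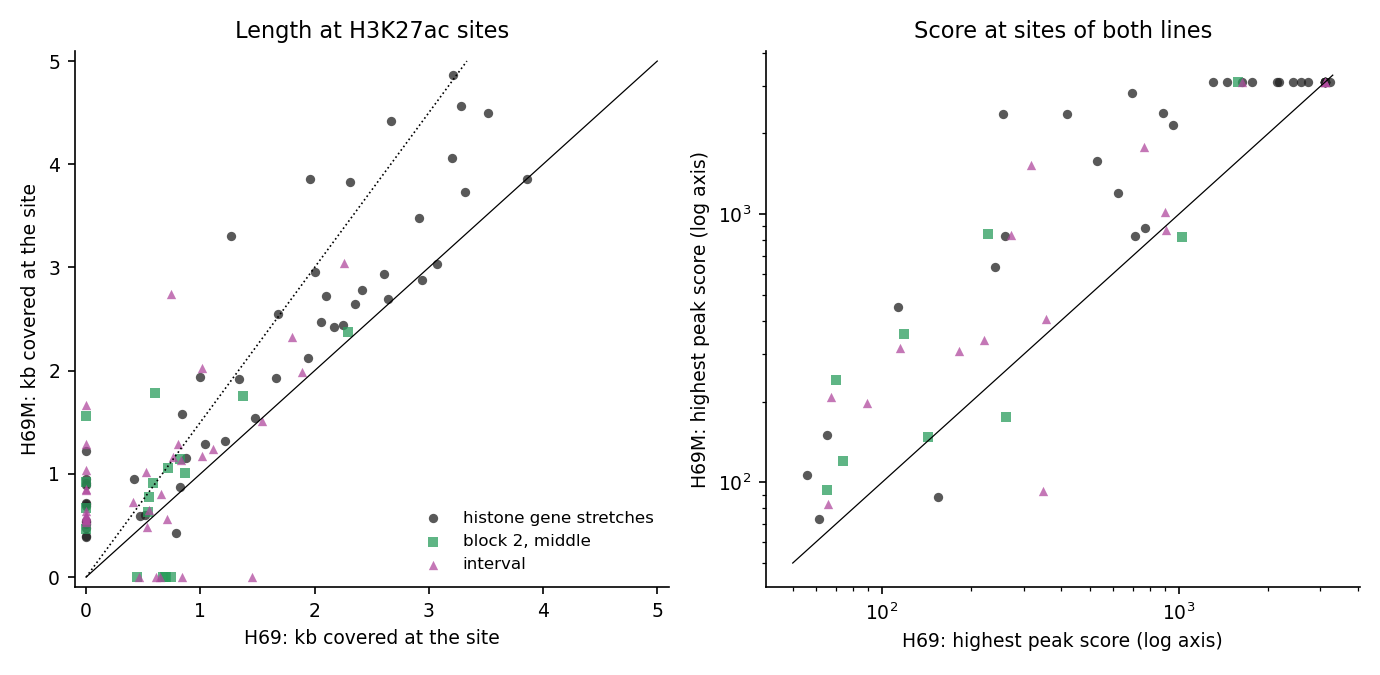
Left, kb covered at each H3K27ac site in H69 (x axis) and H69M (y axis), with lines for equal length (solid) and for 1.5-fold more in H69M (dotted) and sites of 1 line on an axis. Right, highest listed peak score in each line at the sites of both lines, on log axes. Most histone gene sites lie above the solid line in both plots, and none of them lies on the H69 axis.

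The largest H3K27ac differences in favour of H69M lay mostly in block 1. The site at chr6:26222616-26225926 had 2 peaks in each line, over 1267 bp in H69 and 3306 bp in H69M (ratio 2.61), and its highest score was 256 in H69 and 2357 in H69M. At chr6:26053720-26057580 the lengths were 1962 and 3861 bp (1.97) with scores of 1457 and 3100. The site at chr6:26155665-26160086 had 2 peaks over 2671 bp in H69 and 1 peak over 4422 bp in H69M (1.66), with scores of 2732 and 3100. At chr6:26270202-26275066, which holds the widest H69M peak of the blocks, 2 H69 peaks over 3210 bp stood inside 1 H69M peak of 4865 bp (1.52), with a highest score of 3100 in both lines. The next difference was a weak H69M peak in the middle of block 2, 1562 bp at chr6:27445918-27447479 with a score of 159, where H69 had none.

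Listed scores went the same way. Of the 46 sites, 12 were at the ceiling in both lines, 10 in H69M only (21.7%, against 11.1% of all sites of both lines) and 0 in H69 only. Of the 24 sites below the ceiling in both lines, 21 had the higher score in H69M (87.5%, against 70.4% of all such sites) and 3 in H69. The 7 such sites of block 1 and the 7 of the last end of block 2 all had it in H69M. The sites of both lines over the genome are not a like background here. H69 peaks had a median score of 667 in the blocks and 213 over all. Sites of both lines had a median H69 length of 1811 bp in the blocks and 1345 bp over all. The shares by ceiling and score, and those of longer and of joined sites, were not taken by score or length.

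Sites of 1 line only were weak in the blocks, as they were in the median over the genome. Sites listed only in H69M had a median score of 98.3 in the blocks and 109 over all such sites. Those listed only in H69 had 79.7 and 78.1. The 17 sites listed only in H69M (of the 68 sites of the blocks, where 42% of all sites were of this kind) had scores from 51.5 to 310 and a median length of 688 bp, and 13 of them lay in the histone gene stretches. Of these 13, 9 stood within 2000 bp of a site of both lines, where the share over all H69M-only sites was 18.1%, and in block 1 all 6 did. Sites of both lines themselves stood closer together in block 1 and at the last end of block 2 than over the genome. Their median distances were 10.00 and 4.45 kb, against 31.6 kb, so the 18.1% is not a like background for these stretches. The strongest H69M-only peaks with no H69 peak within 5000 bp were chr6:27124549-27125768 (score 118), chr6:27759449-27760371 (103) and chr6:27156125-27156795 (69.5). The 5 sites listed only in H69 (7.35%, against 14.6%) lay in the middle of block 2 and had scores from 50.7 to 148. Of these the ones with no H69M peak within 5000 bp were chr6:27486718-27487418 (148), chr6:27705941-27706681 (97.4) and chr6:27598522-27599211 (55.3).

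H3K27me3 was not listed on the main run of histone genes in either line. Block 1 and the first end of block 2 had 0 peaks of this mark in both lists, and the last end of block 2 had 1 in H69 and 2 in H69M. Of the 21 H69 and 32 H69M peaks of the blocks, 20 and 30 lay in the middle of block 2, between the histone genes. An absence in block 1 is common for a region of its size, since 69.8% of the 275 kb windows in H69 and 65.7% in H69M had no H3K27me3 peak, and 58.7% had none in either line. Among the 23 windows with as much H3K27ac as block 1 in both lines, 11 (47.8%) had none in either line.

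Around block 1 the H69 list had no H3K27me3 from 25965205 to 26343761, a stretch of 379 kb that ended 53.8 kb beyond the block. In H69M the free stretch was longer, 5058 kb from 21663537 to 26721516. Gaps as long numbered 1300 in H69 (6.01% of all gaps between its peaks) and 92 in H69M (0.243%). These are shares by number, and a long gap takes up more of the genome than a short one. They therefore do not tell how often a place in the genome lies in a gap as long. H69M had no peak in the first part of the stretch between the blocks, where H69 had 6, between 26343762 and 26514863, with scores from 58.4 to 83.8.

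The stretch between the blocks held 22 H3K27me3 peaks over 4.88 kb in H69 and 19 over 2.95 kb in H69M, a ratio of 0.603, and the middle of block 2 held 20 over 3.77 kb and 30 over 4.23 kb, a ratio of 1.12. With equal numbers of peaks taken from the lists by score, H69M had 20 peaks in place of 32 in the blocks, and the ratio for the blocks turned from 1.14 to 0.774. Over chromosomes 1 to 22 and X the ratio was 1.62, and on chromosome 6 it was 0.844. The H3K27me3 of the stretch between the blocks was gathered in 65 kb, from 26.72 to 26.785 Mb, which held 16 of the 22 H69 and all 19 H69M peaks and no H3K27ac peak in either line. This window was chosen after its values were seen. Its highest score was 150 in H69M and 90.6 in H69. The median score of the whole stretch between the blocks went the other way, 58.66 in H69M and 66.95 in H69.

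**Figure D4:**
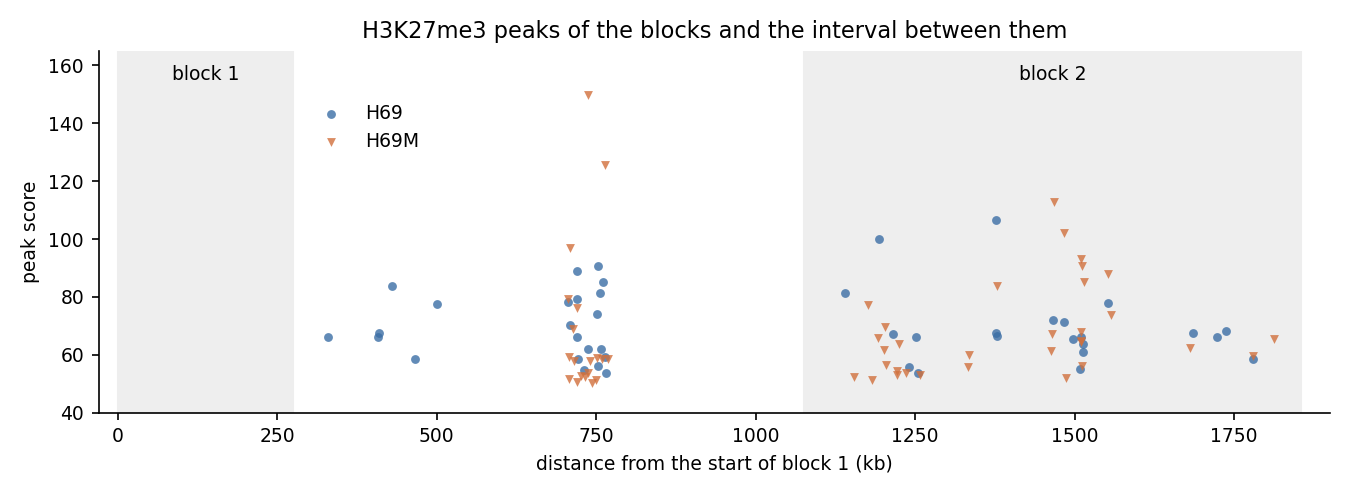
Listed score of each H3K27me3 peak of the blocks (shaded) and of the stretch between them against the distance from the start of block 1 in kb, H69 as circles and H69M as triangles. Block 1 holds no point, and the highest points are H69M peaks, 150 between the blocks and 113 in block 2.

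In the middle of block 2 the peaks were spread over longer stretches. From 27.39 to 27.53 Mb there were 10 H3K27me3 peaks in H69 and 13 in H69M, covering 1.98 and 2.01 kb, and 3 H3K27ac peaks in each line. From 27.15 to 27.28 Mb there were 6 and 12, covering 1.12 and 1.51 kb, with 0 and 1 H3K27ac peaks. Both windows were chosen after their values were seen.

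In the median, the H3K27me3 peaks of the blocks were about as narrow and as low in score as those of the whole lists. Their median width was 176 bp in H69 and 132 bp in H69M, against 185 and 156 bp over all peaks. Their median scores were 66.6 and 64.1, against 66.9 and 65.0. Scores of 100 or more were rarer in the blocks, reached by 1 of 21 in H69 (13.8% over all H69 peaks) and by 2 of 32 in H69M (18.1% over all). The strongest were chr6:27392546-27392781 (107), chr6:27208519-27208739 (99.9) and chr6:27154696-27154914 (81.5) in H69, none of them overlapped by an H69M peak. In H69M they were chr6:27483021-27483179 (113), chr6:27497746-27497864 (102) and chr6:27524793-27524978 (93.0).

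Few of these peaks overlapped a peak of the other line. Of the 21 H69 peaks 4 overlapped an H69M peak (19.05%, 5.45 to 41.9, against 32.6% of all H69 peaks), and 4 of the 32 H69M peaks overlapped an H69 peak (12.5%, 3.51 to 29.0, against 18.9%). Both intervals include the share over all peaks. With a peak of the other line within 1000 bp counted as shared, a rule not applied over all peaks, the shares were 52.4% and 34.4%. No peak of the other line lay within 5000 bp of 6 of the 21 H69 and 12 of the 32 H69M peaks. Over all peaks this held for 6440 of 21638 in H69 and 14938 of 37853 in H69M. Joined into sites, the peaks of the blocks gave 49, of which 17 were listed only in H69 (34.7%, against 28.5% of all H3K27me3 sites) and 28 only in H69M (57.1%, against 59.9%). The shared sites were chr6:27392844-27393110, chr6:27497596-27497864, chr6:27524726-27524978 and chr6:27567246-27567469, and at all 4 the H69M score was the higher one, as it was at 61.9% of all such sites, with 66.6 and 83.9, 71.4 and 102, 66.2 and 93.0, and 77.8 and 88.1. With no counterpart within 5000 bp, the highest scores were 81.5, 68.2 and 67.1 in H69, at 27154696, 27752141 and 27230348, and 77.1, 69.5 and 65.4 in H69M, at 27190428, 27218420 and 27827769.

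The marks met at 1 place. At the last end of block 2 the H3K27ac site of both lines at chr6:27793486-27796133 (score 711 in H69 and 829 in H69M) held an H3K27me3 peak of 176 bp in H69, chr6:27794901-27795076 with a score of 58.6, and one of 133 bp in H69M, chr6:27795139-27795271 with a score of 59.5. The H3K27me3 peaks of the lines did not overlap each other there. This was 1 of 62 H3K27ac block peaks in H69 (1.61%, against 0.805% of all H69 peaks) and 1 of 64 in H69M (1.56%, against 1.56%). From the side of H3K27me3 it was 1 of 21 peaks in H69, against 1.87% of all, and 1 of 32 in H69M, against 3.5%. Both H3K27me3 scores were below the medians of their whole lists.

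Histone genes outside chromosome 6 were set beside the blocks. The HIST2 window (149.75 to 149.87 Mb of chromosome 1) and the HIST3 window (228.6 to 228.66 Mb) are known to hold further replication-dependent histone genes, and their limits too come from general knowledge of hg19. In the HIST2 window H3K27ac covered 15.7% in H69 (9 peaks) and 22.95% in H69M (12 peaks), close to block 1, and all 9 H69 peaks overlapped an H69M peak. H3K27me3 there was 1 peak of 141 bp in H69 and 4 peaks over 671 bp in H69M. The HIST3 window, the smallest, had 2 H3K27ac peaks in each line (7.30% and 8.68%). Its H3K27me3 was 3 peaks over 1.20% in H69 and 4 over 1.42% in H69M. This is a larger covered share than in the blocks (0.374% and 0.428%), though from few peaks. The ratio of H69M to H69 in H3K27ac length was 1.46 in the HIST2 window and 1.19 in the HIST3 window, both below the 1.59 of the genome.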

How the data were processed

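The deposited files are 1 peak list per antibody library, 4 in all, with a position, a peak name containing MACS and a score for each peak. The submitters' processing notes name Bowtie2, SAMtools 0.1.19 and the build hg19. Not given in the sources used here are the peak caller's version and settings, the use of the input, and how reads that align to several places were treated, which bears on near-identical histone genes. The unit of the deposited values is a score with no stated definition, starting at about 50.0.

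Peaks on chromosomes 1 to 22 and X were read with Python 3.11.15 and pandas 2.3.3. A peak belonged to a stretch, or counted as shared, by an overlap of 1 bp or more. Overlapping peaks of both lines were joined into sites. Shares carry exact 95% binomial intervals (SciPy 1.17.1) for counting error only. With 1 library per group no test between lines was made, and differences in depth or enrichment could not be removed. A deeper library gives more and wider peaks. The interval functions were tested on simulated data. Coordinates are 1-based. Sites were named by rule, the highest scoring, widest and unshared peaks and the largest differences in length of the blocks. The rule also takes every site where both marks overlap. The opening and closing sites of block 1, other sites of block 2 outside this rule, stretches without peaks and the H3K27me3 windows were chosen after their values were seen. Alternatives were a score of 100 or more, equal numbers of peaks in the lists of a mark, the peak midpoint, histone gene stretches only, peaks joined within 1000 bp, and sharing by 50% of the peak or within 1000 bp. The members, windows and lists were chosen with earlier results of these data known.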

Additional observations from a re-analysis of the deposited data

How the results depend on the processing

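Each library is the only one of its group and its depth is unknown, and the H69M lists are longer over the whole genome, so the part of depth in the longer H69M sites was not tested. No paired analysis was possible because each group has 1 sample, and no replicate could be left out. The H3K27ac ratio of H69M to H69 in the blocks stayed between 1.32 and 1.43 under the 4 alternatives run for it (score of 100 or more, equal numbers of peaks, peak midpoint, histone gene stretches only). The 3 direction changes were all in H3K27me3, which has 21 and 32 peaks in the blocks. Of the 67 alternative values 45 stayed within the limits set (the 95% interval of a share, or 1.5 times a count or ratio), 19 moved beyond them and 3 changed direction. The 45 include values that could not move. Under equal numbers of peaks the H69 lists, the shorter ones for both marks, stayed whole, so values taken from an H69 list alone were unchanged.

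With histone gene stretches only, the share of H69 H3K27ac peaks found in H69M was 100%, the H3K27ac ratio of the blocks to the stretch between them was 6.59 in H69 and 5.72 in H69M, H3K27me3 peaks numbered 1 in H69 and 2 in H69M with shared shares of 0 and 0, and the H3K27me3 ratio to the stretch between the blocks was 0.0678 in H69 and 0.181 in H69M (0.598 and 1.13 in the whole blocks). The middle of block 2 is left out there. With scores of 100 or more, H3K27me3 peaks numbered 1 in H69 and 2 in H69M, with shared shares of 0 and 0, and the H69M ratio to the stretch between the blocks was 0.357. No H69 peak reached that score between the blocks, so its ratio could not be given. Under equal numbers of peaks, H69M had 20 H3K27me3 peaks in the blocks, the H3K27me3 ratio of H69M to H69 was 0.774 instead of 1.14, and the H69M ratio to the stretch between the blocks was 1.88. Joining peaks closer than 1000 bp left 39 H3K27ac peaks in H69 and 41 in H69M. Counting a peak of the other line within 1000 bp as shared gave 84.4% of H69M H3K27ac peaks, 52.4% of H69 and 34.4% of H69M H3K27me3 peaks. This rule was applied to block peaks only. Whether the shares over all peaks rise as far under it was not tested. The peak midpoint rule changed no value.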
